A study of Mus musculus with 66 samples.

Results

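Ionotropic and metabotropic glutamate receptor genes were followed in cultured mouse neurons in which 1 of 9 regulators of chromatin and transcription had been lowered by RNA interference. The 9 genes described are Grin1, Grin2a, Grin2b, Grin2d and Grin3a, which encode NMDA receptor subunits, and Grm2, Grm3, Grm5 and Grm7, which encode metabotropic receptors. They were chosen by name, as 9 of the 30084 gene symbols in the count table, and all 9 passed the filter on low counts that left 16145 genes to test. The neurons came from wildtype E16.5 embryos and were kept as male and female cultures. They received lentivirus carrying a short hairpin RNA (shRNA) against Chd8, Med13l, Setd5, Ash1l, Tbr1, Dnmt3a, Kdm6b, Kmt2c or Mbd5, a nontargeting hairpin, or no virus. The virus was removed on culture day 6, and RNA was taken from cells lysed on day 10. Doses had been chosen to leave about 50% of each target. Each of the 11 conditions had 3 libraries per sex, 66 libraries in all. The 6 nontargeting libraries served as the control of every knockdown, so the 9 comparisons are not independent of each other. The labels speak of triplicate wells, so p-values measure the spread between these libraries, which may be technical.

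NMDA receptors are glutamate-gated channels built from GluN1, the subunit that every such receptor needs (Grin1), with GluN2 subunits (Grin2a to Grin2d) or GluN3 subunits (Grin3a, Grin3b). Forebrain neurons are known to begin with GluN2B and to add GluN2A as they mature, whereas GluN2D and GluN3A are known mainly from young neurons, and GluN2D in the adult forebrain mainly from interneurons. Metabotropic receptors signal through G proteins: mGlu5 (Grm5) couples to Gq and phospholipase C, while mGlu2, mGlu3 (Grm2, Grm3) and mGlu7 (Grm7) couple to Gi/o, mGlu7 chiefly at presynaptic release sites.

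Total counts ranged from 13634872 to 66074822 per library. The targeted genes stood at a mean of between 22.5% and 53.3% of the nontargeting level of the same sex. In a pair of male libraries the target levels did not match the labels. Male replicate 1 of the group labelled Setd5 shRNA held Setd5 at 99.1% of the nontargeting mean and Kdm6b at 37.6%. Male replicate 1 of the group labelled Kdm6b shRNA held Setd5 at 29.1% and Kdm6b at 60.1%. Values for Setd5 and Kdm6b shRNA therefore include both libraries unless they are said to leave them out. In the female Kdm6b group, Kdm6b stood between 22.8% and 79.0% of the nontargeting mean. Map2, a neuronal dendrite protein, was at 1111 to 2271 CPM (counts scaled to library size) over the libraries. Of the microglial genes, C1qa was at 0 in 35 libraries and Aif1 in 0. In nontargeting libraries, 6 microglial genes summed to 0.945 to 2.4 CPM and 6 oligodendrocyte lineage genes to 32.7 to 42.9 CPM. There, 8 astrocyte genes summed to 323 to 488 CPM.

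Receptor gene levels were compared between genes as CPM per kilobase of exon, since longer transcripts yield more reads. In the 6 nontargeting libraries, Grm5 had the highest median, 30.9 CPM per kb (range 27.6 to 35.4). Grin2b followed at 22.7 (12.9 to 31.2) and Grin1 at 17.4 (12.2 to 23.0). Grm3 stood at 11.6 (7.70 to 14.5), Grm2 at 10.5 (4.61 to 14.8) and Grm7 at 8.11 (6.64 to 12.7). The lowest 3 were Grin3a at 5.05 (4.10 to 5.26), Grin2d at 4.09 (3.63 to 5.31) and Grin2a at 2.38 (1.61 to 3.69). Neighbours in this order had overlapping ranges except Grm7 and Grin3a, whose libraries did not overlap. Grin2a, the GluN2 subunit of mature synapses, was thus the least abundant member per length, and Grin2b lay well above it in each library. Over all 66 libraries, Grm2 varied most in CPM, from 8.45 to 86.9, a 10.3-fold range, and Grm7 varied least, from 33.9 to 74.8, a 2.21-fold range.

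**Figure D1:**
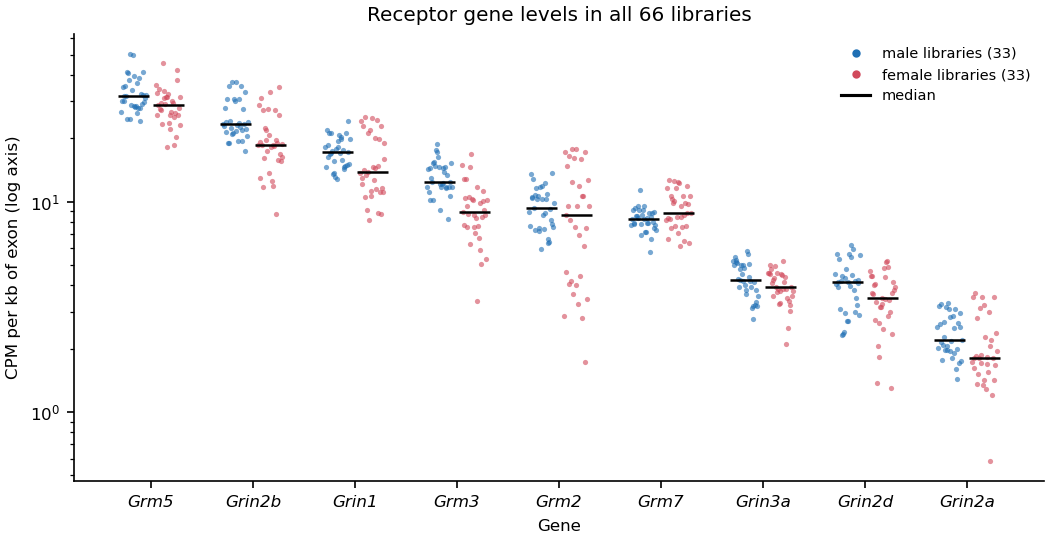
CPM per kilobase of exon (log axis) for the 9 receptor genes, ordered by their nontargeting median; each point is 1 of 66 libraries, blue for male and red for female, and bars mark the median of each sex. Grm5 and Grin2b sit at the top, and Grin2d, Grin3a and Grin2a at the bottom; female Grm2 points spread over the widest range.

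Related genes outside the 9 were low or near the limit of counting. Grm4 had a median of 18.9 CPM over the 66 libraries and Grm8 19.1 CPM. Grin2c (median 0.306 CPM) and Grin3b (0.159) were close to 0, and Grm6, a receptor of retinal bipolar cells, had at most 6 counts and was not tested. Of the related genes tested, 0 passed the threshold in any knockdown in edgeR's quasi-likelihood test, although Tbr1, Setd5, Kmt2c and Kdm6b shRNA each gave 1 gene with an unadjusted p under 0.05. Among all genes, 6.99% of values over the 9 knockdowns passed, so a count of 0 in so few genes says little. With the replicate number added to the fit as a block, Grin2c, at its level near 0, passed on the higher side after Kmt2c shRNA (log2 fold change 1.90, SE 0.505, edgeR adjusted p = 0.0221).

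Each knockdown was compared with the nontargeting libraries as the mean of its male and female log2 fold changes, 6 libraries against 6. The test was the quasi-likelihood test of edgeR, with p-values adjusted by Benjamini-Hochberg over all genes tested and a threshold of 0.05. Of the 81 values (9 genes in 9 knockdowns), 6 passed and all 6 were lower after knockdown. Over all genes and knockdowns, 6.99% of values passed, 3.95% on the lower side, so the count is close to the background. The 6 were Grin2d after Chd8 shRNA, Grin2a after Med13l shRNA, and Grin3a after Med13l, Setd5, Tbr1 and Kdm6b shRNA. In this fit every one of them encodes an NMDA receptor subunit, and of the 36 values of the metabotropic genes 0 passed. In the 6 knockdowns whose replicate numbers paired the libraries in both sexes, 7 of 54 values passed with the number as a block, against 3 without it. The 7 included the metabotropic genes Grm5 and Grm7 after Chd8 shRNA, both higher. Of all values in these 6 knockdowns, 12.2% passed with the block and 5.29% without it. The share of all genes that passed differed widely between knockdowns. It was 24.1% for Med13l, 22.3% for Chd8, 6.16% for Ash1l and 5.3% for Setd5. It was 1.4% for Dnmt3a, 1.33% for Tbr1, 0.966% for Kdm6b, 0.694% for Kmt2c and 0.663% for Mbd5. Virus by itself moved none of the 9 past the threshold: nontargeting against no virus gave log2 fold changes from -0.11 to 0.08, with 0 values at an unadjusted p under 0.05 in edgeR, and 0% of all genes passed.

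**Figure D2:**
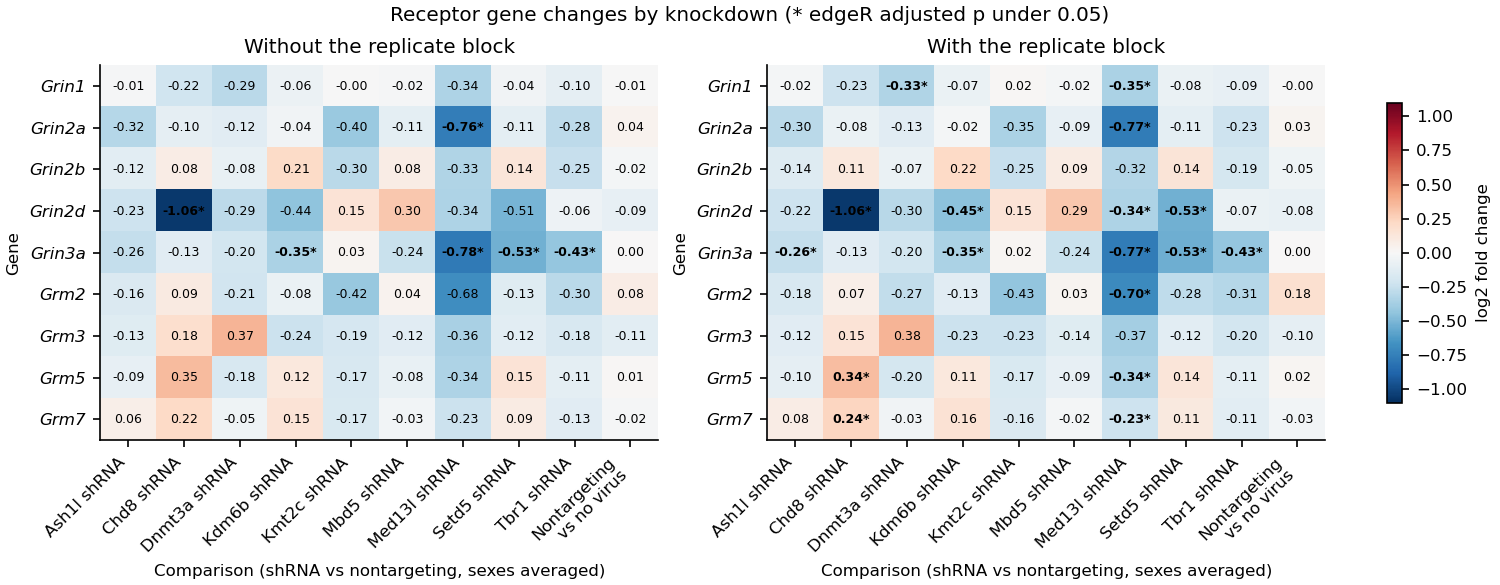
Log2 fold change of each receptor gene (rows) in each comparison (columns), with the sexes averaged; the left matrix is the fit without the replicate number, the right one has the number within sex as a block, and asterisks mark an edgeR adjusted p under 0.05 (for Ash1l, Kdm6b and Med13l the numbers did not pair the libraries in both sexes). Red is higher and blue lower than the control; the Grin3a row and the Med13l column are mostly blue, and the nontargeting against no virus column is pale.

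Grin3a passed the threshold in more knockdowns than any other of the 9 genes. It also had the smallest standard errors without the block, 0.0926 to 0.0934, so smaller changes could pass. Those of the other genes ran from 0.142 to 0.425. With the block Grin3a passed in 5 knockdowns and Grin2d in 4. GluN3A lowers the calcium permeability of NMDA receptors and is known to hold back synapse maturation. The gene lies at chr4:49661611-49845744 on the minus strand (mm10, GENCODE). The nontargeting libraries had 63.1, 64.6 and 62.6 CPM in males and 61.5, 58.8 and 50.4 CPM in females. The no virus libraries had 64.4, 61.5 and 66.9 CPM in males and 56.1, 56.2 and 55.5 CPM in females. The control conditions thus covered the same range, with the lowest value in a nontargeting female library.

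After Med13l shRNA, which targets a subunit of the Mediator kinase module, Grin3a was at 38.2, 39.2 and 33.8 CPM in males and 25.9, 42.7 and 30.9 CPM in females. All 6 lay below every nontargeting library, a pattern that 5.22% of genes showed in this comparison. Grin3a fell by 0.78 on the log2 scale (SE 0.0934, adjusted p = 7.61e-09, edgeR), to 58.4% of the control level. The fall was 0.77 in males and 0.78 in females, and all 6 libraries were lower than their same-numbered controls. The summed level of 7 interneuron markers was 1083 to 1884 CPM against 1753 to 2170 CPM in nontargeting libraries, ranges that overlap. Of these 7, 2 were lower past the threshold (Slc32a1 and Gad1), and no gene of the list was at 0 in every library. The astrocyte list of 8 genes summed to 257 to 399 CPM against 323 to 488 CPM, with 2 of 8 lower. Of all genes, 24.1% passed in this comparison in either direction. The part of either list in this result and in the other Med13l results was not tested. In RNA from whole cultures, fewer cells of a type and less RNA per cell cannot be told apart.

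After Setd5 shRNA, against a SET-domain chromatin protein, Grin3a was at 50.9, 39.7 and 40.9 CPM in males and 41.4, 37.1 and 39.7 CPM in females. The highest value, 50.9, came from the library whose Setd5 level went against its label, and it alone overlapped the nontargeting range. Grin3a fell by 0.53 (SE 0.0932, adjusted p = 0.000177, edgeR) with all libraries and by 0.59 (adjusted p = 2.61e-05) without both libraries in question. Fitting only the Setd5 and nontargeting libraries gave a fall of 0.52 with an adjusted p of 0.0579, which ends the call. Interneuron markers summed to 1224 to 2003 CPM in this group, with 2 of 7 lower past the threshold (Sst and Slc32a1). Of all genes, 5.3% passed in this comparison in either direction, and the part of these markers was not tested.

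After Tbr1 shRNA, against a transcription factor of deep-layer cortical neurons, Grin3a was at 46.4, 39.2 and 43.8 CPM in males and 48.5, 43.7 and 46.4 CPM in females. All 6 lay below every nontargeting library, as for 1.13% of genes in this comparison, and Grin3a fell by 0.43 (SE 0.0929, adjusted p = 0.00558, edgeR). Here 0 of 7 interneuron markers passed the threshold in edgeR and their sum was 1551 to 1960 CPM. Markers of immature neurons, a list of 5 genes, summed to 1734 to 2192 CPM against 2119 to 2366 CPM in nontargeting libraries, with 1 of 5 lower past the threshold (Dcx). The astrocyte list summed to 197 to 279 CPM, with 1 of 8 lower past the threshold (Slc1a2). Of all genes, 1.33% passed in this comparison in either direction, and the part of either list was not tested.

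After Kdm6b shRNA, against a histone H3 lysine demethylase, Grin3a was at 49.4, 46.6 and 44.4 CPM in males and 45.9, 40.4 and 55.6 CPM in females. The highest was the female library with Kdm6b at 79.0% of the nontargeting mean. The call was close to the threshold, with a log2 fold change of -0.35 (SE 0.0929, adjusted p = 0.0478, edgeR), and without both libraries against their labels the change was -0.37 (adjusted p = 0.0328). It was lost when any 1 of 9 of the 12 libraries was left out, with adjusted p from 0.0642 to 0.196. It was kept only without nontargeting female replicate 3, Kdm6b shRNA female replicate 3 or the library labelled Kdm6b shRNA male replicate 1. It was also lost without the filter on low counts (adjusted p = 0.0904) and with only the compared libraries fitted (adjusted p = 0.401).

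Singled out after its values were seen, Grin3a can be set beside all genes. Of the genes tested, 0.167% passed the threshold on the lower side in at least 4 of the 9 knockdowns, as Grin3a did. That count includes the Kdm6b call, which was lost when any 1 of 9 libraries was left out. In at least 3 knockdowns, 1.12% of genes passed on the lower side. The other 5 knockdowns gave Grin3a log2 fold changes from -0.26 to 0.03 and did not pass. For Ash1l shRNA the change was -0.26 (adjusted p = 0.0875, edgeR), for Mbd5 -0.24, for Dnmt3a -0.20, for Chd8 -0.13 and for Kmt2c 0.03. Chd8 shRNA, one of the 2 knockdowns that called the most genes, thus had no Grin3a call (adjusted p = 0.366). In males the shRNA libraries all lay below the 3 nontargeting libraries in 8 of 9 knockdowns, Kmt2c being the exception. These 8 share the same 3 nontargeting male libraries, which spanned only 62.6 to 64.6 CPM. Over all genes, 11.8% of the male comparisons had this pattern, and 0.0867% of genes had it in at least 8 knockdowns. In females the Grin3a groups were separated in this way only after Med13l, Setd5 and Tbr1 shRNA. They overlapped after Ash1l, Chd8, Dnmt3a, Kdm6b, Kmt2c and Mbd5 shRNA. The share of all genes with the female pattern was not counted.

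**Figure D3:**
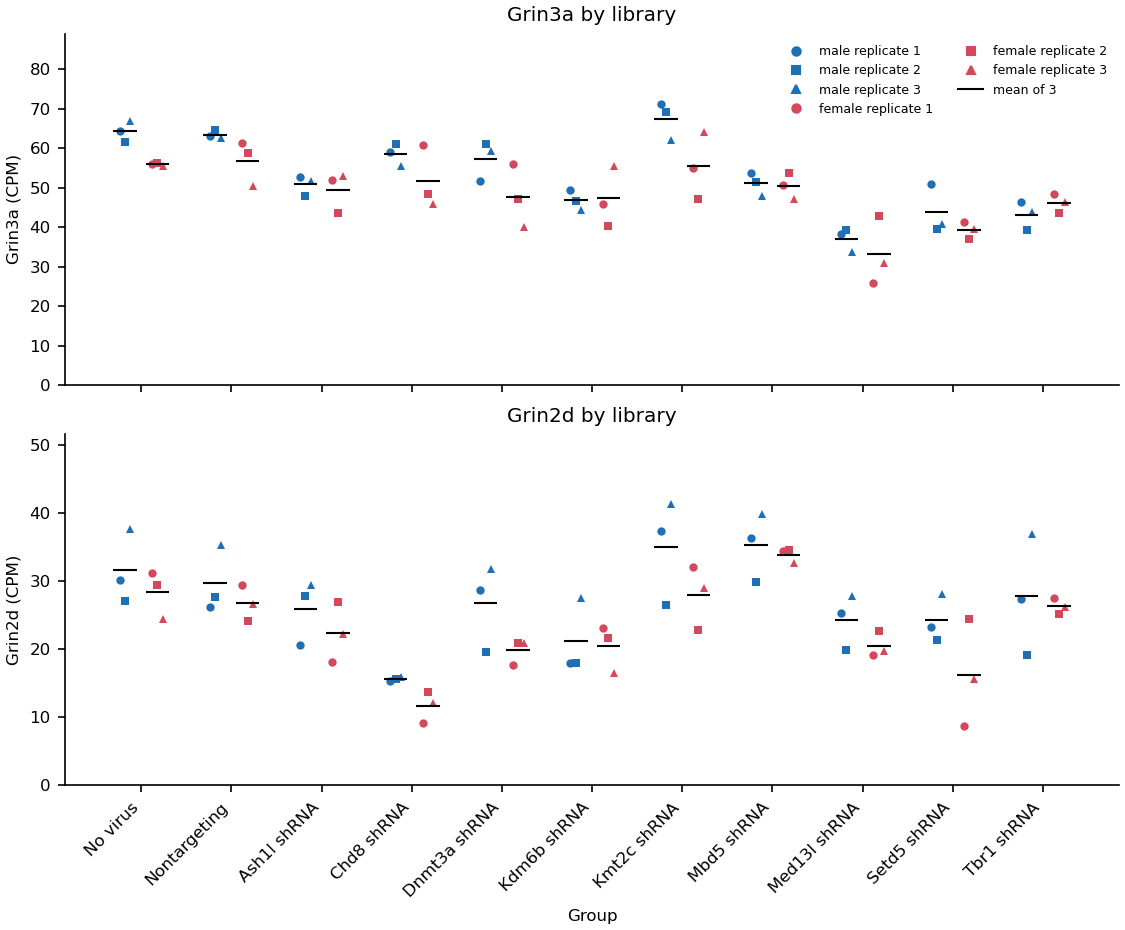
CPM of Grin3a (top) and Grin2d (bottom) in each library by condition; blue points are male and red female libraries, the marker shape gives the replicate number and black bars are means of 3. Grin3a is lowest after Med13l shRNA and low after Setd5, Tbr1 and Kdm6b shRNA; Grin2d is lowest after Chd8 shRNA, where all 6 points lie between 9.18 and 16.0 CPM.

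Grin2d gave the largest change of the 81 values. The gene lies at chr7:45831883-45878378 on the minus strand. RefSeq (GRCm38.p6, the same assembly) starts it further inside that span, and the bases before that start are shown because this gene had the largest fall. Capitals in the windows printed here mark GGGCGG, the GC box, searched on both strands.
Grin2d, chr7:45866682-45866931, minus strand: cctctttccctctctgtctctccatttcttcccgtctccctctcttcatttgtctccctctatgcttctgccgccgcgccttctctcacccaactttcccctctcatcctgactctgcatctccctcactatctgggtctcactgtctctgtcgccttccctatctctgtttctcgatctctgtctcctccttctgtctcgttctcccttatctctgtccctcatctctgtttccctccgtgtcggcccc
This window of 250 bases has 54.4% GC, 9 CpG pairs and 0 GC boxes, and no GC box in it says only that these letters are absent from it. Among 32851 RefSeq windows of the same length, the median GC content was 52.4% with 6 CpG pairs, and 32.74% held a GC box.

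In nontargeting libraries Grin2d was at 26.3, 27.7 and 35.3 CPM in males and 29.4, 24.2 and 26.7 CPM in females. After Chd8 shRNA, against a chromodomain helicase, it was at 15.4, 15.6 and 16.0 CPM in males and 9.18, 13.7 and 12.1 CPM in females. No Chd8 library reached the lowest nontargeting value, as for 7.09% of genes in this comparison. Grin2d fell by 1.06 on the log2 scale (SE 0.165, adjusted p = 1.78e-06, edgeR), to 47.9% of the control level. It fell by 0.93 in males (adjusted p = 0.00502) and by 1.19 in females (adjusted p = 0.00029), and in 6 of 6 same-numbered pairs. The fall stayed between 0.98 and 1.13 with each library left out in turn. Interneuron markers summed to 1244 to 1766 CPM in the Chd8 group, with 2 of 7 lower past the threshold (Gad2 and Slc32a1). The astrocyte list summed to 230.0 to 342 CPM, with 2 of 8 lower. The immature neuron list summed to 2307 to 3571 CPM, with 2 of 5 higher (Sox11 and Tubb3). Of all genes, 22.3% passed in this comparison in either direction, and the part of these lists was not tested. Ash1l shRNA gave Grin2d a log2 fold change of -0.23, which did not pass (adjusted p = 0.533, edgeR). In that group the interneuron sum was 876 to 1325 CPM, with 3 of 7 lower, beside 6.16% of all genes that passed in either direction. The part of these markers in Grin2d was not tested there either. Kdelr1, which overlaps the Grin2d locus on the other strand but shares 0 exon bases with it, had a log2 fold change of -0.10 in the Chd8 comparison (adjusted p = 0.322).

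Setd5 shRNA gave Grin2d values of 23.3, 21.4 and 28.1 CPM in males and 8.66, 24.4 and 15.6 CPM in females, which overlapped the nontargeting range. The log2 fold change was -0.51 (SE 0.164) and missed the threshold (adjusted p = 0.0539, edgeR). Without both libraries against their labels the adjusted p was 0.0807. With the replicate number as a block it was -0.53 and passed (adjusted p = 0.003), and without Setd5 shRNA female replicate 2 it was -0.73 and passed (adjusted p = 0.0024). Kdm6b shRNA gave -0.44 (adjusted p = 0.216), or -0.39 (adjusted p = 0.413) without both libraries. Mbd5 shRNA lay on the other side of 0, at 0.30 (SE 0.162, adjusted p = 0.842), with 6 of 6 pairs higher.

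Grin2a, at chr16:9567898-9995560, fell past the threshold after Med13l shRNA only. It was at 28.6, 25.7 and 35.8 CPM in Med13l males and 10.5, 39.4 and 21.7 CPM in Med13l females. The nontargeting libraries had 47.0, 38.4 and 58.5 CPM in males and 28.9, 66.2 and 33.1 CPM in females. The male groups did not overlap and the female groups did, but every Med13l library was below its same-numbered control, by 0.57 to 1.45 on the log2 scale. Over all genes and the 9 knockdowns, 11.8% of male comparisons lay wholly below the controls. The mean change of Grin2a was -0.76 (SE 0.268, adjusted p = 0.0331, edgeR), to 59.2% of the control level. The call was lost without any 1 of 7 libraries (nontargeting female 2 and male 1 and 3, Med13l shRNA female 1 and 3 and male 1 and 2). There the change lay between -0.75 and -0.51, with adjusted p from 0.0531 to 0.205. It was also lost without the filter on low counts (adjusted p = 0.0637) and with only the compared libraries fitted (adjusted p = 0.0847). The difference between the Med13l effect and that of any other knockdown on Grin2a was not tested.

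All 9 genes had a log2 fold change below 0 after Med13l shRNA, with a median of -0.34 beside -0.011 over all genes tested. Only Grin3a and Grin2a passed in this comparison, in which 24.1% of all genes did. Grin1 was at -0.34 (adjusted p = 0.334), Grin2b at -0.33 (0.299), Grin2d at -0.34 (0.129), Grm2 at -0.68 (0.255), Grm3 at -0.36 (0.183), Grm5 at -0.34 (0.0787) and Grm7 at -0.23 (0.241), all adjusted p-values from edgeR. For Grm5, leaving out Med13l shRNA female replicate 2 gave -0.41 and an adjusted p of 0.0353. In females, where the replicate numbers paired the libraries, the fit with the number as a block called 5 of the 9 lower, against 1 without it. They were Grin2a (-0.87, adjusted p = 0.000232), Grin3a (-0.77, 5.6e-06), Grm2 (-0.62, 0.0167), Grm3 (-0.71, 0.0229) and Grm5 (-0.47, 0.00963). Of all genes tested, 13.9% passed on the lower side in that fit and 5.49% without the block.

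Grin1 encodes the subunit that every NMDA receptor contains. It lies at chr2:25291181-25319187 and shares 1307 exon bases with the antisense gene Grin1os, which had 9 to 91 counts per library against 1494 to 13661 for Grin1. Grin1 passed in none of the 9 comparisons, with log2 fold changes from -0.34 to -0.0036 and standard errors of 0.245. After Dnmt3a shRNA, against a DNA methyltransferase, it was at 132, 127 and 172 CPM in males and 79.7, 213 and 109 CPM in females. The nontargeting libraries had 180, 158 and 207 CPM in males and 118, 223 and 137 CPM in females, so the groups overlapped, although each of the 6 pairs was lower. The change was -0.29 without the block (adjusted p = 0.799, edgeR) and -0.33 with it (SE 0.0971, adjusted p = 0.0277). Only the fit with the block passed.

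Grin2b, the GluN2 subunit of young forebrain neurons, lies at chr6:135713233-136173511 and passed in none of the comparisons. Its log2 fold changes ran from -0.33 (Med13l) to 0.21 (Kdm6b), with standard errors of 0.225. The nontargeting levels ran from 321 to 775 CPM, a wider range than any of the 9 mean changes.

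Among the metabotropic genes, Grm5 came closest to the threshold. The gene lies at chr7:87584168-88134907 on the plus strand. Chd8 shRNA gave 419, 390 and 516 CPM in males and 468, 344 and 317 CPM in females, against 307, 326 and 363 CPM and 296, 353 and 283 CPM in nontargeting libraries. All male Chd8 libraries were above the male controls, the female groups overlapped, and 5 of 6 pairs were higher. The share of all genes with male libraries wholly above the controls was not counted. On the lower side it was 11.8% of male comparisons over the 9 knockdowns. Grm5 changed by 0.35 (SE 0.144, adjusted p = 0.0786, edgeR) and, with the block, by 0.34 (SE 0.1, adjusted p = 0.00584). Upper quartile scaling gave 0.40 (adjusted p = 0.0344). Grm7, at chr6:110645581-111567230, moved by 0.22 in the same comparison (adjusted p = 0.301) and by 0.24 with the block (adjusted p = 0.00793). With the block, Chd8 shRNA thus gave 1 lower and 2 higher genes of the 9, where 19.4% of all genes passed on the lower side and 17.5% on the higher.

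Grm2, at chr9:106643095-106656082, and Grm3, at chr5:9485541-9725170, encode the pair of Gi/o-coupled receptors often named together as group II. Neither passed in any comparison of the sexes averaged without the block. Grm2 changes ran from -0.68 (Med13l) to 0.09 (Chd8) with standard errors of 0.421 to 0.425, the largest among the 9. After Kmt2c shRNA, Grm2 was lower in 6 of 6 pairs, by 0.29 to 0.53, with a change of -0.42 that did not pass either without the block (adjusted p = 1, edgeR) or with it (adjusted p = 0.0848). Grm3 ran from -0.36 (Med13l) to 0.37 (Dnmt3a), the latter with an adjusted p of 0.544.

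The spread of several receptor genes followed the replicate number. In the 33 female libraries, the number accounted for 95.2% of the variance within groups of log2 CPM of Grm2, 93.2% of Grin1, 83.8% of Grm7 and 77.6% of Grin2a. Relative to their group means, Grm2 stood at -1.15 in female replicate 1, 0.98 in replicate 2 and 0.17 in replicate 3, and Grin1 at -0.48, 0.61 and -0.13. The numbers have no order, and what the libraries of 1 number share is not given in the labels. Grin2d (10.7%) and Grin3a (4.03%) did not follow the number in females. In males the share was 26.7% for Grm2, 35.0% for Grin1, 76.5% for Grin2a, 82.5% for Grin2b, 65.3% for Grin2d and 17.9% for Grin3a.

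**Figure D4:**
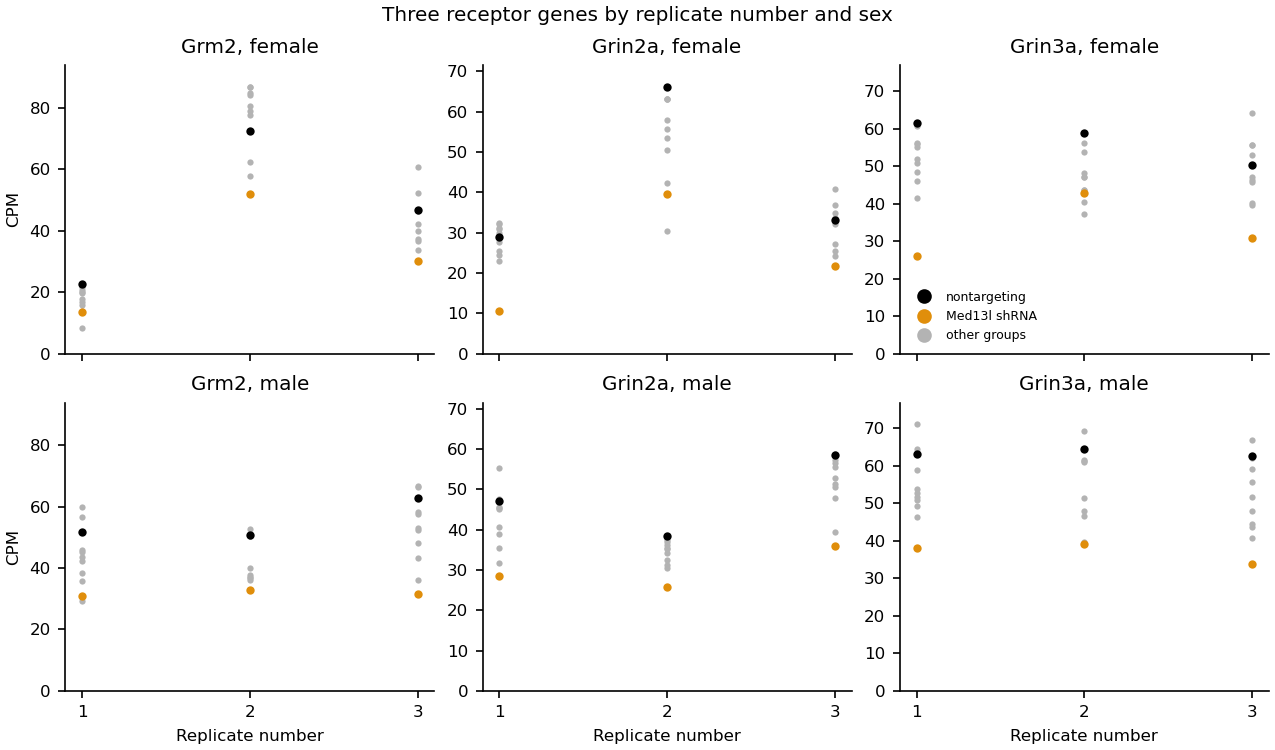
CPM of Grm2, Grin2a and Grin3a by replicate number in female (top) and male (bottom) libraries; each point is 1 library, black for nontargeting, orange for Med13l shRNA and grey for the other conditions. Female Grm2 lies between 8.45 and 22.5 CPM in replicate 1 and between 52.1 and 86.9 CPM in replicate 2, while Grin3a shows no such step.

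The windows before the RefSeq starts of Grm2 and Grin1 are shown because these genes followed the replicate number most closely in females, which they did not in males.
Grm2, chr9:106656110-106656359, minus strand: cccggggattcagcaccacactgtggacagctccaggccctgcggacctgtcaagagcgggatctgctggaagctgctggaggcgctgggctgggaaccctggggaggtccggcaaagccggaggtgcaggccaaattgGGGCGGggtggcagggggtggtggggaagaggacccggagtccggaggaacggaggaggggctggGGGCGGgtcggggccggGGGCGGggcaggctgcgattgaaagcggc
Grin1, chr2:25319188-25319437, minus strand: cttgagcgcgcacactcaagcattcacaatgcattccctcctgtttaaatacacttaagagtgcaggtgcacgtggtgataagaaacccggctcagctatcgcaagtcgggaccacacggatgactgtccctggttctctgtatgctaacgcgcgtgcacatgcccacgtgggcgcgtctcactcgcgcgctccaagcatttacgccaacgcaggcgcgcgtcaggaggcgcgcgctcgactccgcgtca
The Grm2 window has 71.2% GC, 16 CpG pairs and 3 GC boxes. The Grin1 window has 58.8% GC, 27 CpG pairs and 0 GC boxes. A window was found for 5 of the 9 genes (also Grm3 and Grm7), and none of these held TATAAA or the cAMP response element TGACGTCA, searched on both strands. These were present in 12.37% and 1.55% of the 32851 windows. A match of letters is a description and not a binding site.

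The ratio of Grin2a to Grin2b counts within a library was used as a measure of maturation, since GluN2A gains on GluN2B as neurons mature. It needs no library size. In nontargeting libraries it was 0.0881, 0.0646 and 0.0766 in males and 0.0901, 0.0854 and 0.0715 in females. After Med13l shRNA it was 0.0524, 0.0532 and 0.0521 in males and 0.0486, 0.0832 and 0.0553 in females. All male Med13l libraries were below the male controls, the female groups overlapped, and 6 of 6 pairs were lower. The mean difference was -0.48 on the log2 scale, with p = 0.01 in an exact two-sided permutation test within sex and an adjusted p of 0.1 over the 10 ratio comparisons. It did not pass after adjustment. The smallest p this design allows is 0.005, so over 10 comparisons no single knockdown could have passed on its own. A failure to pass therefore decides nothing about the ratio.

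The other differences were -0.26 for Setd5 (p = 0.085, exact permutation test as for the rest), -0.25 for Kdm6b (p = 0.14), -0.19 for Mbd5 (p = 0.12), -0.19 for Chd8 (p = 0.185) and -0.16 for Ash1l (p = 0.19). Kmt2c (-0.09, p = 0.46), Dnmt3a (-0.08, p = 0.425) and Tbr1 (-0.04, p = 0.74) were nearest to 0 among the exact permutation tests. Without both libraries against their labels the difference was -0.31 for Setd5 (exact permutation p = 0.04, adjusted p = 0.2) and -0.30 for Kdm6b (p = 0.105, adjusted p = 0.3). All 9 were below 0, but they share the same 6 nontargeting libraries, whose ratio lay 0.09 above that of the no virus libraries (exact permutation p = 0.4). Against no virus, the Dnmt3a difference was 0.0076 and the Tbr1 difference 0.0488, both above 0. The Tbr1 difference also ran from -0.12 to 0.01 as libraries were left out in turn.

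**Figure D5:**
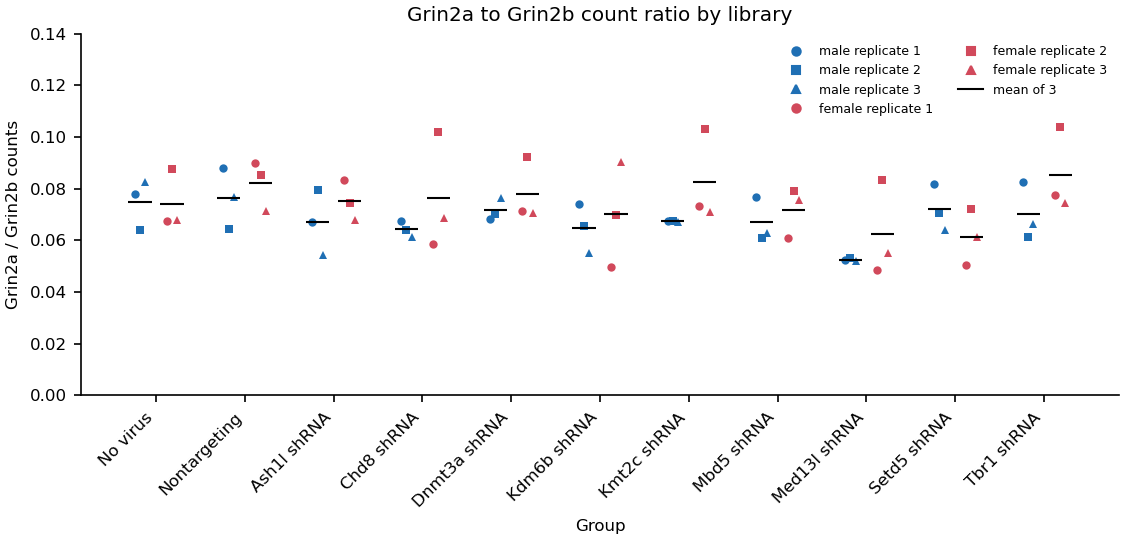
Ratio of Grin2a to Grin2b counts in each library by condition, blue for male and red for female, with the marker shape giving the replicate number and black bars the means of 3. The 3 male Med13l libraries sit together near 0.05, and conditions overlap elsewhere.

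Other gene pairs known to exchange as neurons mature were set beside it. Slc12a5 to Slc12a2, the chloride exporter over the importer, was lower by 0.80 after Chd8 shRNA (exact permutation p = 0.005, adjusted p = 0.05) and by 0.49 after Med13l shRNA (p = 0.01, adjusted p = 0.05). Both stood at the threshold and not under it, and Kdm6b shRNA gave -0.47 (exact permutation p = 0.045, adjusted p = 0.15), or -0.37 without both libraries (p = 0.08). Dlg4 to Dlg3, encoding the scaffolds PSD-95 and SAP102 that bind GluN2 tails, was lower by 0.35 after Chd8 shRNA (exact permutation p = 0.015, adjusted p = 0.15) and higher by 0.22 after Ash1l shRNA (p = 0.035, adjusted p = 0.175). After Chd8 shRNA the Grin2a to Grin2b ratio itself differed by -0.19, smaller than either of these.

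The sexes were also tested apart. In males 3 of 81 values passed (Grin2d after Chd8, Grin3a after Med13l and Tbr1 shRNA), beside 2.28% of all values. In females 3 passed (Grin2d after Chd8, Grin3a after Med13l and Setd5 shRNA), beside 2.68%. The male minus female difference of the effect passed for 0 of the 81 values in edgeR (0.00206% of all values), with 0 at an unadjusted p under 0.05 and a smallest adjusted p of 0.9999. With the block the count was also 0 and the smallest adjusted p was 0.867. Grin3a after Tbr1 shRNA, for instance, changed by -0.56 in males (adjusted p = 0.0468) and -0.30 in females (adjusted p = 0.952), which is no tested difference between them.

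Genes that work with these receptors were counted in the same fits. Of 16 genes of the NMDA receptor complex and its scaffold, 2 were lower and 3 higher after Chd8 shRNA. After Med13l shRNA 3 were lower and 1 higher, and after Setd5 shRNA 2 were lower and 0 higher. Of all genes, 22.3%, 24.1% and 5.3% passed in these 3 knockdowns in either direction. In the other 6 knockdowns 0 of the list passed in edgeR (between 0 and 2 per knockdown at an unadjusted p under 0.05). Camk2a, the kinase that binds GluN2B, fell by 0.75 after Chd8 shRNA (adjusted p = 0.000571). Genes were named by smallest p, and the 3 that were higher after Chd8 shRNA are not named. After Med13l shRNA, the scaffold gene Shank3 fell by 0.85 (adjusted p = 0.000203) and Srr, which makes the co-agonist D-serine, by 0.34 (adjusted p = 0.000164). After Setd5 shRNA, Dlgap1, a scaffold, fell by 0.63 (adjusted p = 0.0155) and Neto1, an auxiliary subunit, by 0.60 (adjusted p = 0.0145). Without both libraries these falls were 0.77 and 0.70. The medians of this list were 0.07, -0.16 and -0.01 in these 3 knockdowns, beside medians over all genes of -0.0026, -0.011 and -0.0072.

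In the list of 16 partners and signalling genes of the metabotropic receptors, the genes that passed included G protein subunits, a scaffold and a phospholipase. Gnai2, a Gi subunit, fell by 1.26 after Ash1l shRNA, from 121 ± 15.7 CPM to 50.5 ± 9.43 CPM (SD, 6 libraries each, edgeR adjusted p = 2.05e-09), and Gnaq rose by 0.38 there (adjusted p = 0.00308). Gna11, the other Gq-class subunit of the list, fell by 0.70 after Mbd5 shRNA (adjusted p = 1.37e-05) and by 0.44 after Dnmt3a shRNA (adjusted p = 0.00985). Gnao1, the main Go subunit of neurons, fell by 0.70 after Med13l shRNA (adjusted p = 1.62e-06) and Gnai1 by 0.44 after Setd5 shRNA (adjusted p = 0.0277), or by 0.55 without both libraries. Homer2, which binds the tail of mGlu5, fell by 0.86 after Med13l shRNA (adjusted p = 2.8e-06). Plcb4, a phospholipase C downstream of Gq, fell by 0.68 after Chd8 shRNA (adjusted p = 5.48e-05) and by 0.50 after Tbr1 shRNA (adjusted p = 0.0291). Pick1, which binds mGlu7, fell by 0.29 after Chd8 shRNA (adjusted p = 0.00165). Over the list, 4 genes were lower after Chd8, 3 lower and 1 higher after Med13l, and 1 lower and 2 higher after Ash1l shRNA. After Dnmt3a, Mbd5, Setd5 and Tbr1 shRNA 1 gene each was lower. Of all genes, 22.3% passed after Chd8, 24.1% after Med13l and 6.16% after Ash1l shRNA, in either direction. The shares were 1.4% for Dnmt3a, 0.663% for Mbd5, 5.3% for Setd5 and 1.33% for Tbr1 shRNA. Kdm6b and Kmt2c shRNA gave 0 in edgeR, with 4 and 3 at an unadjusted p under 0.05.

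Of 7 genes of glutamate transport and supply, 3 were lower after Chd8 shRNA, where 22.3% of all genes passed in either direction. These 3 included the vesicular transporters Slc17a7 (-0.55, adjusted p = 0.00664) and Slc17a6 (-0.51, adjusted p = 0.0134). Slc17a6 rose by 0.95 after Ash1l shRNA (adjusted p = 2.24e-05), where the neuronal uptake carrier Slc1a1 fell by 0.48 (adjusted p = 0.0238). Slc17a7 fell by 0.69 after Kdm6b shRNA (adjusted p = 0.0149), or by 0.99 without both libraries (adjusted p = 4.52e-06). The glial carrier Slc1a2 fell by 1.34 after Tbr1 shRNA (adjusted p = 1.76e-06) and by 0.81 after Kmt2c shRNA (adjusted p = 0.00738). Of 7 activity-regulated genes, 1 passed in any knockdown, Arc, which rose by 0.60 after Chd8 shRNA (adjusted p = 0.0221, edgeR). In that comparison 22.3% of all genes passed in either direction, and over the 9 knockdowns 6.99% of all values did.

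The genes whose group means ran most like those of each receptor gene were listed by Pearson r over the 22 groups, after the mean of each sex was removed, as a description. The groups share 1 fit and the same 3 replicate numbers per sex. For Grin3a they were Syt17 (r = 0.909) and Kctd1 (0.881), for Grin2d Stxbp2 (0.924) and Ltbp3 (0.922), for Grin2a Prrc2c (0.964) and Crebbp (0.921), and for Grin2b Cacna1e (0.949) and Tnik (0.898). For Grin1, Ptpn23 had an r of 0.868. Grm5 was nearest to Rtf1 (0.944) and Ptger3 (0.926), Grm7 to Amer1 (0.916) and Ubp1 (0.91), Grm2 to Ntng2 (0.891) and Pcdhb3 (0.88), and Grm3 to Iqcg (0.856) and Fam227a (0.811). Among the receptor genes themselves, Grm5 and Grm7 (r = 0.824) and Grin2a and Grin2b (0.780) had the highest r, and Grin2d had negative r with Grm7 (-0.588) and Grm5 (-0.570).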

How the data were processed

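RNA was sequenced from the 66 libraries (polyA RNA, a stranded mRNA kit, per the labels' protocols). The authors deposited 1 series table of gene-level read counts, whole numbers that were not normalized. STAR, featureCounts and the mouse build mm10 are named in the submitters' processing notes; versions, annotation and the strand setting of the counting are not given in the sources used here. GENCODE places transcripts on the opposite strand over Grin1, Grin2b, Grin2d, Grm2, Grm5 and Grm7, so reads from shared exon bases could not be told apart if strand was not used; shared exon bases were counted only for Grin1 and Grin2d among these. Control columns are named Luc, for a luciferase hairpin, and were matched to the nontargeting samples on that basis; 6 library columns matched no sample and were not used. Of 48716 rows, 18483 had no symbol (0.69% to 1.42% of counts) and were left out; 149 rows that repeated a symbol were summed. Of counts from 1 to 20, 26.7% were odd, against 49.1% of those of 1000 or more, so counts halved and rounded were also tried.

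Counts were tested in edgeR 4.0.16 (R 4.3.3; filterByExpr, TMM scaling with factors of 0.874 to 1.06, glmQLFit with robust estimation, 22 group means over 66 libraries). CPM are TMM-scaled; plots and variance shares use log2 CPM with a prior count of 2 where logged. Kilobases are unions of GENCODE M21 exons on GRCm38, the assembly of mm10; promoter sequences are RefSeq's. Ratios had 0.5 counts added to each gene and labels were permuted within sex (400 arrangements). DESeq2 1.42.0 was an alternative. The scripts were tested on simulated data. Intervals and error come from replicates only; PCR reads are not independent molecules. In each group, libraries differed by more than sampling noise (chi-square per gene at least 7.92).

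Replicate numbers are shared between groups. They were taken to pair libraries where each same-numbered pair of an shRNA and a nontargeting library correlated over genes, as deviations from the group mean, by more than 0.1. This held in both sexes for 6 of 9 knockdowns and not for Ash1l (males), Kdm6b (both sexes) and Med13l (males).

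The genes and lists were chosen with earlier results of these data known. Named genes are the 9, the 2 list genes with the smallest p per list and knockdown among those that passed, and the 2 genes most like each of the 9; some of these are not reported here.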

Additional observations from a re-analysis of the deposited data

How the results depend on the processing

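With the replicate number as a block, the count of receptor genes that passed became 7 for Med13l, 3 for Chd8, 2 for Setd5 and Kdm6b and 1 for Dnmt3a and Ash1l; per sex the total rose from 6 to 17 and in the pathway lists from 37 to 99. For Kdm6b and Med13l 1 related gene each passed newly, Grm4 and Grm8, both lower. For Ash1l, Kdm6b and Med13l the libraries share only a number in at least 1 sex. Over all, 50 of 54 shRNA libraries correlated best with the nontargeting library of their own number (r from -0.109 to 0.655 for same-numbered pairs). The block together with leaving out both libraries against their labels, chosen after seeing the data, gave 7 for Med13l, 4 for Chd8, 2 for Setd5, 1 each for Ash1l, Dnmt3a and Kmt2c, 19 per sex and 108 in the lists. Fitting only the compared libraries gave 2 for Chd8, 1 for Med13l and 0 for Setd5 and Kdm6b. No filter on low counts gave 1 for Med13l and 0 for Kdm6b. Upper quartile scaling gave 2 for Chd8; DESeq2 gave 2 for Setd5, as did no virus as control. Against no virus the Grin2a to Grin2b difference changed sign for Dnmt3a (0.0076) and Tbr1 (0.0488), and 2 Slc12a5 to Slc12a2 comparisons passed. The adjustment there ran over the 9 knockdowns only, without the virus comparison, and fewer tests by themselves lower adjusted p-values. With 1 library left out, counts ran from 1 to 3 (Med13l), 1 to 2 (Setd5), 0 to 1 (Kdm6b), 0 to 2 (Slc12a5 to Slc12a2 ratio) and 30 to 39 (lists), and the Tbr1 ratio difference from -0.1158 to 0.0133. The cause of these shifts was not tested. The 17 receptor gene values that passed with the block, sexes averaged, were tallied under 12 other settings, the block among them. In this tally 174 kept their side of the threshold, 25 passed newly, 5 no longer passed and none changed sign. New passes under the block were fixed by that choice of values, so the tally does not measure how stable the results are. Depth limits the genes with few counts: Grin2d had 208 to 1573 and Grin2a 248 to 4057 counts per library.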
